A study of Mus musculus with 4 samples.

Results

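Ly6a, Ly6c1, Ly6c2 and Ly6e, 4 genes for small surface antigens of the Ly6 family, were described in single-cell RNA-seq of mononuclear cells from dystrophic mouse muscle. They were chosen by gene symbol and are 4 of the 32285 genes in the deposited matrices. The study compared mdx5cv/Ccr2-/- with mdx5cv mice at 14 weeks of age, in quadriceps and in diaphragm. Mice of both groups carry mdx5cv, a mutation of the dystrophin gene that models Duchenne muscular dystrophy. The mdx5cv/Ccr2-/- mice lack in addition the chemokine receptor Ccr2, which classical monocytes need to leave the bone marrow and to enter inflamed tissue. Each of the 4 groups was 1 library, so the differences below carry neither a replicate check nor a p-value. The sources used here do not give the number of animals per library, the strain background or the deleted stretch of Ccr2. The series title asks about resident macrophages that expand and become activated in mdx5cv/Ccr2-/- muscle.

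Ly6 proteins are short, disulphide-rich domains held on the cell surface by a glycosylphosphatidylinositol (GPI) anchor. Ly6a encodes Sca-1, the antigen by which fibro-adipogenic progenitors (FAPs, the fibroblast-like mesenchymal cells of muscle) are sorted, and is also known from endothelium and lymphocytes. Ly6c1 and Ly6c2 encode the forms of Ly6C, the antigen by which mouse monocytes are divided into classical (Ly6C-high) and non-classical cells. Ly6e encodes a broadly expressed antigen known as a receptor for syncytin-A in the mouse placenta and as a factor that limits entry of some viruses. Ly6a and Ly6e are known interferon-inducible genes.

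The 4 genes lie within 157 kb on mouse chromosome 15 (GRCm38, GENCODE M21). Ly6e (ENSMUSG00000022587) lies at chr15:74955051-74959905 on the plus strand. Ly6a (ENSMUSG00000075602) follows at chr15:74994877-74998031, Ly6c1 (ENSMUSG00000079018) at chr15:75044018-75048830 and Ly6c2 (ENSMUSG00000022584) at chr15:75108158-75111970, these 3 on the minus strand. Over their coding sequences Ly6c1 and Ly6c2 had the same base at 387 of 396 positions (97.7%), with 9 substitutions. Ly6a had the same base as Ly6c1 in 82.0% of aligned columns, and Ly6e the same base as Ly6a in 53.8%.

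The last 150 coding bases of Ly6c1 (chr15:75045402-75045551, minus strand) and of Ly6c2 (chr15:75108543-75108692, minus strand), stop codon included, are shown because single-cell reads start from the 3′ end of a transcript and have to be assigned to one gene of this pair. Capitals mark the 3 bases that differ.
Ly6c1: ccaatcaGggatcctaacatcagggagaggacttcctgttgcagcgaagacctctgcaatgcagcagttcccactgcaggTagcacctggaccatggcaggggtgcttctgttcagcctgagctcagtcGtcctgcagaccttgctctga
Ly6c2: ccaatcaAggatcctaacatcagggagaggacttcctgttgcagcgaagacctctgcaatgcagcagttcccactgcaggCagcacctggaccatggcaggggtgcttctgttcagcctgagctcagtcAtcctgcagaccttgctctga
Over the last 400 transcript bases 386 aligned columns were the same, and 35 of 311 windows of 90 bases in Ly6c1 (11.3%) occurred unaltered in a Ly6c2 transcript. No such window was shared with Ly6a or Ly6e. Reads from the shared windows cannot be told apart, and the sources used here do not say what the authors' counting did with them.

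The start regions of the pair differ more than their coding ends. They are shown because the levels of Ly6c1 and Ly6c2 separated by cell class (below), and because a promoter sequence was given for these members alone in the RefSeq table (GRCm38.p6). Each runs from 250 bases before to 50 bases after the start of the gene, at chr15:75048788-75049087 for Ly6c1 and chr15:75111922-75112221 for Ly6c2, both on the minus strand. RefSeq gave 2 entries for each gene, of which the one nearest the annotated gene start was used. Capitals mark bases that differ or have no partner in the alignment.
Ly6c1: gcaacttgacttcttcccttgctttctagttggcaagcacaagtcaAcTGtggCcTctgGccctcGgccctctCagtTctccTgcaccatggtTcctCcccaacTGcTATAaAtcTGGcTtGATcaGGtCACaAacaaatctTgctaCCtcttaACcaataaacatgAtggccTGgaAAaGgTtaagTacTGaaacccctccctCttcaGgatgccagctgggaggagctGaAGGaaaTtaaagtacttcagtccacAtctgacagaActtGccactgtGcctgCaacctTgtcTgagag
Ly6c2: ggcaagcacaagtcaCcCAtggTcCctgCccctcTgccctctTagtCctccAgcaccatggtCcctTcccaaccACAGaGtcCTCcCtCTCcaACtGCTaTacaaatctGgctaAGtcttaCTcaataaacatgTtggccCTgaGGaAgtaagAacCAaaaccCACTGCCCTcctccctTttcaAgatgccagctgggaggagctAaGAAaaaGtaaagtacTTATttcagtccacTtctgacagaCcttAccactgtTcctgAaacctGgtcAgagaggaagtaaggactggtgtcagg
Of the 282 columns where the stretches overlapped, 208 were the same (73.8%), 58 were substituted and 16 were gaps. The TATA box letters TATAAA, searched on both strands, occurred in the Ly6c1 stretch and not in the Ly6c2 stretch. They occurred in 13.6% of 32851 promoters in that table. In Ly6c1 they lie well before the gene start rather than next to it, and whether they act as a TATA box was not tested. The letters GAAANNGAAA, known from interferon response elements and searched in the same way, were in 3.44% of promoters. They were not found in the Ly6c1 or the Ly6c2 stretch, which says only that these letters are not in these windows.

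The 4 libraries held 56399477 to 92189580 UMIs (unique transcript counts) over 33554 barcodes, of which 31077 passed the filters on UMIs, genes and mitochondrial share. Of these cells, 81.6% to 88.8% per library fell into 1 of 21 classes, each gated on 6 marker genes and called X-like because it rests on RNA alone. Own markers were among the 10 leading genes of each of the 18 classes checked. The gate itself asks for these markers, so this does not test the class names. Non-classical monocyte-, plasma cell- and mast-like cells were not checked, and FAP/fibroblast-like cells had 1 such marker there, Pdgfra. Tenocyte-like cells also had 1 marker of another class there, Chodl of the muscle stem cell gate. Ly6c2 itself was among the leading genes of the classical monocyte-like class. The barcode sequences shared by at least 2 libraries numbered 104. Ccr2, the deleted gene, had 15.1 CPM (UMIs of the gene scaled to a fixed library total) in mdx5cv/Ccr2-/- quadriceps against 247 CPM in mdx5cv quadriceps, and 8.71 CPM in mdx5cv/Ccr2-/- diaphragm against 131 CPM in mdx5cv diaphragm. The direction fits the genotype labels, and whether the 3′ reads that remain lie outside the deleted stretch cannot be told from these files.

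Over whole libraries Ly6c2 was the least abundant member and the one furthest apart between genotypes. It had 8.34 CPM (553 UMIs) in mdx5cv/Ccr2-/- quadriceps against 63.5 CPM (3580 UMIs) in mdx5cv quadriceps, and 4.60 CPM (310 UMIs) in mdx5cv/Ccr2-/- diaphragm against 22.0 CPM (2032 UMIs) in mdx5cv diaphragm. Ly6c1 was higher in mdx5cv/Ccr2-/- libraries, with 427 CPM in mdx5cv/Ccr2-/- quadriceps against 355 CPM in mdx5cv quadriceps and 222 CPM in mdx5cv/Ccr2-/- diaphragm against 135 CPM in mdx5cv diaphragm. Ly6c1 was the one member that stood higher without Ccr2 in both muscles. Ly6a had 363 CPM in mdx5cv/Ccr2-/- quadriceps against 465 CPM in mdx5cv quadriceps, and 464 CPM in mdx5cv/Ccr2-/- diaphragm against 501 CPM in mdx5cv diaphragm. Ly6e had 487 CPM in mdx5cv/Ccr2-/- quadriceps against 631 CPM in mdx5cv quadriceps, and 426 CPM in mdx5cv/Ccr2-/- diaphragm against 529 CPM in mdx5cv diaphragm. In such sums fewer cells of a type and less RNA per cell cannot be told apart.

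The class make-up of the libraries moved with these sums. Endothelial-like cells, the largest source of Ly6c1 in 3 of the 4 libraries, made up 34.9% of cells in mdx5cv/Ccr2-/- quadriceps against 26.5% in mdx5cv quadriceps, and 13.7% in mdx5cv/Ccr2-/- diaphragm against 7.64% in mdx5cv diaphragm. They gave 85.2% of all Ly6c1 UMIs in mdx5cv/Ccr2-/- quadriceps against 69.7% in mdx5cv quadriceps, and 58.1% in mdx5cv/Ccr2-/- diaphragm against 41.0% in mdx5cv diaphragm, where FAP/fibroblast-like cells gave more (46.5%). Both the endothelial-like cells and their share of Ly6c1 were thus higher in mdx5cv/Ccr2-/- libraries. Classical monocyte-like cells numbered 14 in mdx5cv/Ccr2-/- quadriceps against 143 in mdx5cv quadriceps, and 1 in mdx5cv/Ccr2-/- diaphragm against 50 in mdx5cv diaphragm. This class gave 35.3% of Ly6c2 UMIs in mdx5cv quadriceps and 14.9% in mdx5cv diaphragm. Macrophage-like cells gave 27.1% in mdx5cv quadriceps and 36.0% in mdx5cv diaphragm, while cells in no class held another 29.7% to 38.4% over the 4 libraries. Within classes, CPM were therefore scaled to the UMI total of that class in that library.

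**Figure D1:**
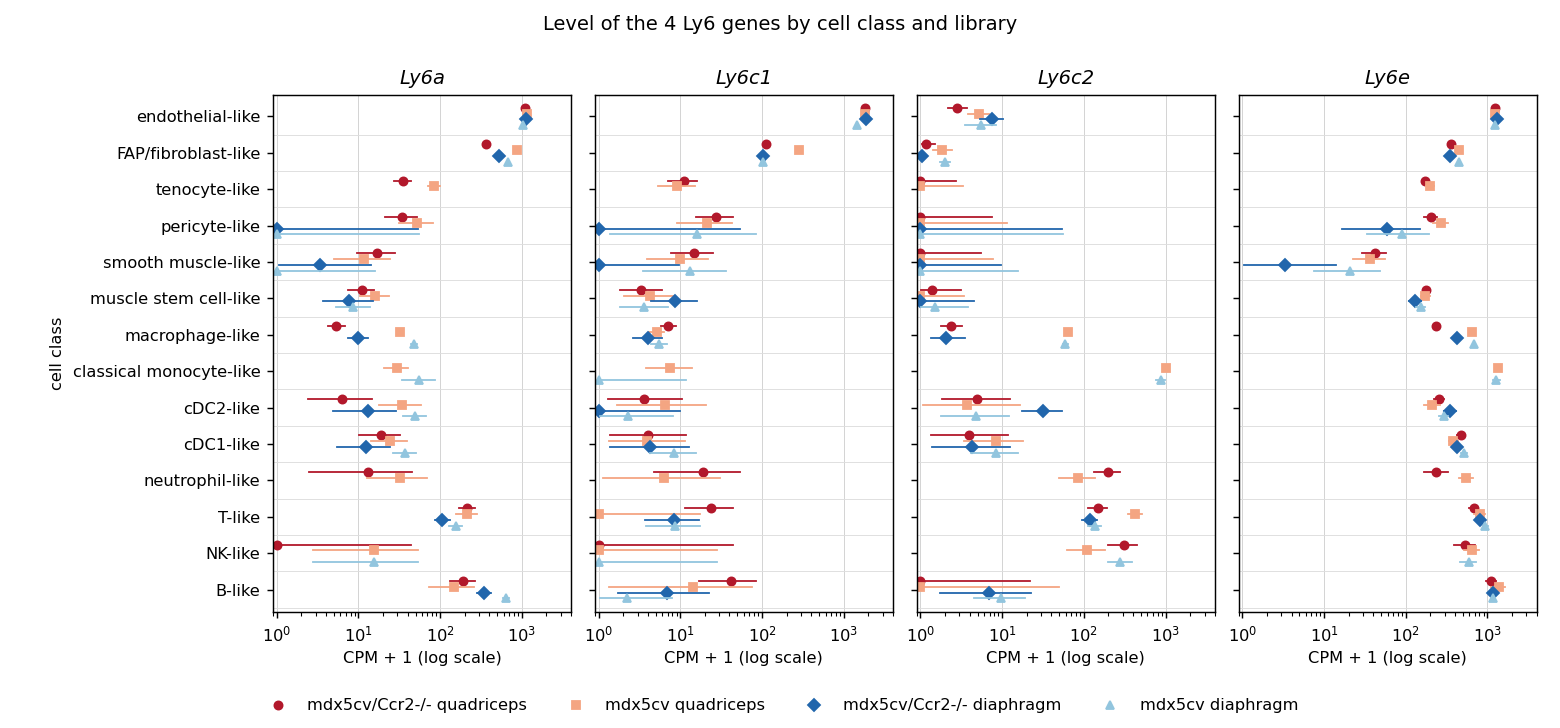
Level of each gene (CPM + 1, log scale) in 14 cell classes, 1 symbol per library of at least 20 such cells with its exact Poisson 95% interval (counting error only). Ly6a and Ly6c1 peak in endothelial-like cells in all 4 libraries, and Ly6e is spread over classical monocyte-, endothelial- and B-like cells. Among the classes drawn, Ly6c2 peaks in classical monocyte-like cells of the mdx5cv libraries. The mdx5cv/Ccr2-/- libraries held fewer than 20 such cells, and plasmacytoid dendritic-like cells are not drawn.

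Ly6a stood highest in endothelial-like cells. Its level there was 1105 CPM in mdx5cv/Ccr2-/- quadriceps against 1146 CPM in mdx5cv quadriceps, and 1131 CPM in mdx5cv/Ccr2-/- diaphragm against 1032 CPM in mdx5cv diaphragm. FAP/fibroblast-like cells came next, with a median over libraries of 605 CPM (range 366 to 881), below the whole endothelial range. B-like cells followed at 267 CPM and overlapped the fibroblast range, and T-like cells were at 183 CPM. Muscle stem cell-like cells, assumed here to lack the gene, held 6.75 to 15.01 CPM.

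Ly6c1 was mainly a transcript of endothelial-like cells. In endothelial-like cells it had 1826 CPM in mdx5cv/Ccr2-/- quadriceps against 1809 CPM in mdx5cv quadriceps, and 1865 CPM in mdx5cv/Ccr2-/- diaphragm against 1472 CPM in mdx5cv diaphragm. FAP/fibroblast-like cells had a median of 106 CPM (range 102 to 279), and pericyte-like cells, next in order, reached 26.2 CPM at most. None of these ranges overlapped. Macrophage-like cells had 2.97 to 6.102 CPM of Ly6c1, within the 2.32 to 7.72 CPM of muscle stem cell-like cells.

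Ly6c2 was mainly a transcript of leukocytes. Classical monocyte-like cells had 1022 CPM in mdx5cv quadriceps and 868 CPM in mdx5cv diaphragm, and too few such cells were left in the mdx5cv/Ccr2-/- libraries for a level. Natural killer-like cells followed at 110 to 305 CPM, T-like cells at 116 to 426 CPM and neutrophil-like cells at 84.3 to 194 CPM, in ranges that overlapped one another. Plasmacytoid dendritic-like cells were too few to be ranked, and held 974 to 3006 CPM in the libraries with 4 to 16 such cells. The mdx5cv/Ccr2-/- diaphragm library had only 2 of them, with 14 Ly6c2 UMIs. Endothelial-like cells had 1.83 to 6.49 CPM of Ly6c2 and FAP/fibroblast-like cells under 1 CPM.

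Among T-like cells, CD8 T-like cells held 43 of 58 Ly6c2 UMIs in mdx5cv/Ccr2-/- quadriceps against 62 of 97 in mdx5cv quadriceps, and 63 of 96 in mdx5cv/Ccr2-/- diaphragm against 58 of 108 in mdx5cv diaphragm. Their level was 335 CPM in mdx5cv/Ccr2-/- quadriceps (30 cells), 471 CPM in mdx5cv/Ccr2-/- diaphragm (22 cells) and 532 CPM in mdx5cv diaphragm (33 cells). Ly6C is known as a marker of memory CD8 T cells in mice. The mdx5cv quadriceps library held 8 such cells, too few for a level. Gamma-delta T-like cells had 0 Ly6c2 UMIs in mdx5cv/Ccr2-/- quadriceps against 20 in mdx5cv quadriceps (16 cells), and 0 in mdx5cv/Ccr2-/- diaphragm against 15 in mdx5cv diaphragm. CD4 T-like cells had 0 to 10 Ly6c2 UMIs per library.

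Ly6e was the most widely spread member. Classical monocyte-like cells had a median of 1319 CPM, endothelial-like cells 1236 CPM (1226 to 1295) and B-like cells 1173 CPM (1115 to 1370), in ranges that overlapped. T-like cells came below them at 679 to 942 CPM, and macrophage-like cells ranged from 231 to 692 CPM. Muscle stem cell-like cells had 129 to 176 CPM and smooth muscle-like cells a median of 28.0 CPM, the lowest of the 16 classes ranked for Ly6e, in a range that overlapped that of Schwann-like cells.

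Despite their shared sequence, Ly6c1 and Ly6c2 UMIs separated almost wholly by class. Ly6c2 made up 0.100% to 0.347% of the summed Ly6c1 and Ly6c2 UMIs in endothelial-like cells of the 4 libraries. In classical monocyte-like cells the share was 99.4% of 1267 UMIs in mdx5cv quadriceps and 100% of 302 UMIs in mdx5cv diaphragm. In macrophage-like cells it was 18.3% of 82 UMIs in mdx5cv/Ccr2-/- quadriceps, against 93.8% in mdx5cv quadriceps, and it was 92.9% in mdx5cv diaphragm. The share in mdx5cv/Ccr2-/- macrophages thus rested on few UMIs of either gene.

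In single endothelial-like cells thinned to 2000 UMIs, Ly6a and Ly6c1 occurred together. Both were found in 74.2% of these cells in mdx5cv/Ccr2-/- quadriceps against 74.7% in mdx5cv quadriceps, and in 71.3% in mdx5cv/Ccr2-/- diaphragm against 59.6% in mdx5cv diaphragm. Cells with a Ly6a UMI had Ly6c1 in 94.2% to 96.0% of cases, and cells without one in 19.8% (mdx5cv diaphragm) to 77.4% (mdx5cv/Ccr2-/- quadriceps). Lymphatic endothelial-like cells lay at the low end of both genes, with 9.82 to 131 CPM of Ly6a and 1.96 to 288 CPM of Ly6c1, while their Ly6e was at 531 to 706 CPM. Capillary endothelial-like cells had 1068 to 1461 CPM of Ly6a and 1957 to 2197 CPM of Ly6c1, and venous endothelial-like cells had 940 to 1378 CPM of Ly6c1.

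In macrophage-like cells of both muscles Ly6e was lower in mdx5cv/Ccr2-/- than in mdx5cv mice. It was the only member that counted as measured in both genotypes there, by the rule given below. Ly6c2 in both muscles and Ly6a in the diaphragm counted as measured through the mdx5cv library alone. Their direction among the measured members was therefore set by that rule. Ly6e, the abundant one, had 231 CPM (95% interval 222 to 240) in mdx5cv/Ccr2-/- quadriceps against 648 CPM (636 to 661) in mdx5cv quadriceps, a ratio of 0.356 (0.341 to 0.372). Its level in mdx5cv/Ccr2-/- diaphragm was 426 CPM (408 to 445), against 692 CPM (678 to 707) in mdx5cv diaphragm, a ratio of 0.616 (0.587 to 0.647). These are exact intervals, Poisson for levels and conditional binomial for ratios, and like all intervals here they cover counting error only. The Ly6e ratio stood at percentile 0.260 of all measured genes in quadriceps macrophage-like cells and at percentile 2.15 in the diaphragm.

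Ly6c2 in macrophage-like cells had 1.37 CPM (15 UMIs) in mdx5cv/Ccr2-/- quadriceps against 62.4 CPM (967 UMIs) in mdx5cv quadriceps. It had 1.06 CPM (5 UMIs) in mdx5cv/Ccr2-/- diaphragm against 58.0 CPM (729 UMIs) in mdx5cv diaphragm. The ratios were 0.0219 (0.0122 to 0.0363) in quadriceps and 0.0183 (0.00593 to 0.0429) in diaphragm, and the mdx5cv/Ccr2-/- levels were under those of endothelial-like cells in the same muscle. Ly6a had 4.37 CPM in mdx5cv/Ccr2-/- quadriceps against 31.6 CPM in mdx5cv quadriceps, a ratio of 0.139 (0.101 to 0.187), and 8.92 CPM in mdx5cv/Ccr2-/- diaphragm against 46.5 CPM in mdx5cv diaphragm, a ratio of 0.192 (0.137 to 0.262). Ly6a in quadriceps was below the level at which a gene counted as measured, and so was Ly6c1 in both muscles, with 14 to 67 UMIs per library. In quadriceps Ly6c1 was not lower, with 67 UMIs over 826 cells in mdx5cv/Ccr2-/- against 64 UMIs over 1093 cells in mdx5cv.

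Measured meant a mean of at least 20 CPM and at least 50 UMIs over both libraries. A gene was called past the fold where its CPM + 5 differed by more than a factor of 1.5. By that rule 2 of 2 measured members were lower in quadriceps macrophage-like cells, where 1.95% of 5391 measured genes were lower, and 3 of 3 in the diaphragm, where 2.98% of 5432 were. Ly6c2 in both muscles and Ly6a in the diaphragm were measured through the mdx5cv library alone and therefore had to differ, so nothing is read from their part in these counts. Ly6e was measured in both genotypes.

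The same directions held in the share of cells with a UMI at 2000 UMIs per cell. Ly6e was found in 34.3% of macrophage-like cells of mdx5cv/Ccr2-/- quadriceps against 60.2% in mdx5cv quadriceps, and in 41.2% in mdx5cv/Ccr2-/- diaphragm against 60.1% in mdx5cv diaphragm. Without thinning, at unequal depths, these shares were 64.3% in mdx5cv/Ccr2-/- quadriceps against 86.3% in mdx5cv quadriceps, and 75.3% in mdx5cv/Ccr2-/- diaphragm against 78.1% in mdx5cv diaphragm. The Ly6e difference in the diaphragm was thus larger at equal depth. Ly6c2 was found in 0.125% of macrophage-like cells of mdx5cv/Ccr2-/- quadriceps against 7.40% in mdx5cv quadriceps, and in 0 of 413 cells in mdx5cv/Ccr2-/- diaphragm, which allows a share of up to 0.726%, against 4.35% in mdx5cv diaphragm. Ly6a was found in 1.38% in mdx5cv/Ccr2-/- quadriceps against 5.79% in mdx5cv quadriceps, and 1.21% in mdx5cv/Ccr2-/- diaphragm against 5.51% in mdx5cv diaphragm. Muscle stem cell-like cells had Ly6a in 1.05% to 3.03% and Ly6c2 in none of 95 to 240 cells per library. They were taken as a background for free RNA, and whether their Ly6a is free RNA was not tested. The mdx5cv/Ccr2-/- shares of Ly6a in macrophage-like cells lay in the range of muscle stem cell-like cells over the libraries.

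Ly6e was lower in every macrophage subset that could be compared. MHC class II-rich macrophage-like cells had 239 CPM in mdx5cv/Ccr2-/- quadriceps against 826 CPM in mdx5cv quadriceps, and 418 CPM in mdx5cv/Ccr2-/- diaphragm against 754 CPM in mdx5cv diaphragm. Folr2 Cd163 resident-like macrophages, the subset highest in Ly6e, had 681 CPM in mdx5cv/Ccr2-/- quadriceps against 1041 CPM in mdx5cv quadriceps, and 637 CPM in mdx5cv/Ccr2-/- diaphragm against 1069 CPM in mdx5cv diaphragm. Spp1 Gpnmb lipid-associated macrophage-like cells had 170 CPM in mdx5cv/Ccr2-/- quadriceps against 394 CPM in mdx5cv quadriceps. The Ly6e ratio in MHC class II-rich cells was 0.289 in quadriceps and 0.555 in diaphragm, where 2.49% and 2.69% of genes were lower past the fold. In Folr2 Cd163 cells it was 0.654 and 0.596, with 8.5% and 4.26% of genes lower, and in Spp1 Gpnmb cells of quadriceps it was 0.433, with 2.77% lower.

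Monocyte markers moved with genotype inside the macrophage-like class. Macrophage-like cells with none of 5 monocyte markers made up 90.9% of the class in mdx5cv/Ccr2-/- quadriceps against 63.3% in mdx5cv quadriceps, and 88.9% in mdx5cv/Ccr2-/- diaphragm against 78.8% in mdx5cv diaphragm. In these cells alone Ly6e had 229 CPM in mdx5cv/Ccr2-/- quadriceps against 520 CPM in mdx5cv quadriceps, a ratio of 0.441 (0.419 to 0.464), and 419 CPM in mdx5cv/Ccr2-/- diaphragm against 617 CPM in mdx5cv diaphragm, a ratio of 0.678 (0.642 to 0.716). Ly6c2 had 1.22 CPM in mdx5cv/Ccr2-/- quadriceps against 23.9 CPM in mdx5cv quadriceps, and 0.483 CPM in mdx5cv/Ccr2-/- diaphragm against 19.1 CPM in mdx5cv diaphragm. Both genes thus kept their direction in these cells. At the other end, macrophage-like cells of mdx5cv quadriceps with 2 or more monocyte markers (130 cells) had 181 CPM of Ly6c2 and 957 CPM of Ly6e, between the whole class and classical monocyte-like cells for both genes. Without the cells that hold a monocyte marker, 1 member (Ly6e) was past the fold in quadriceps and 0 were in diaphragm, and Ly6a and Ly6c2 were below the measured level in both.

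**Figure D2:**
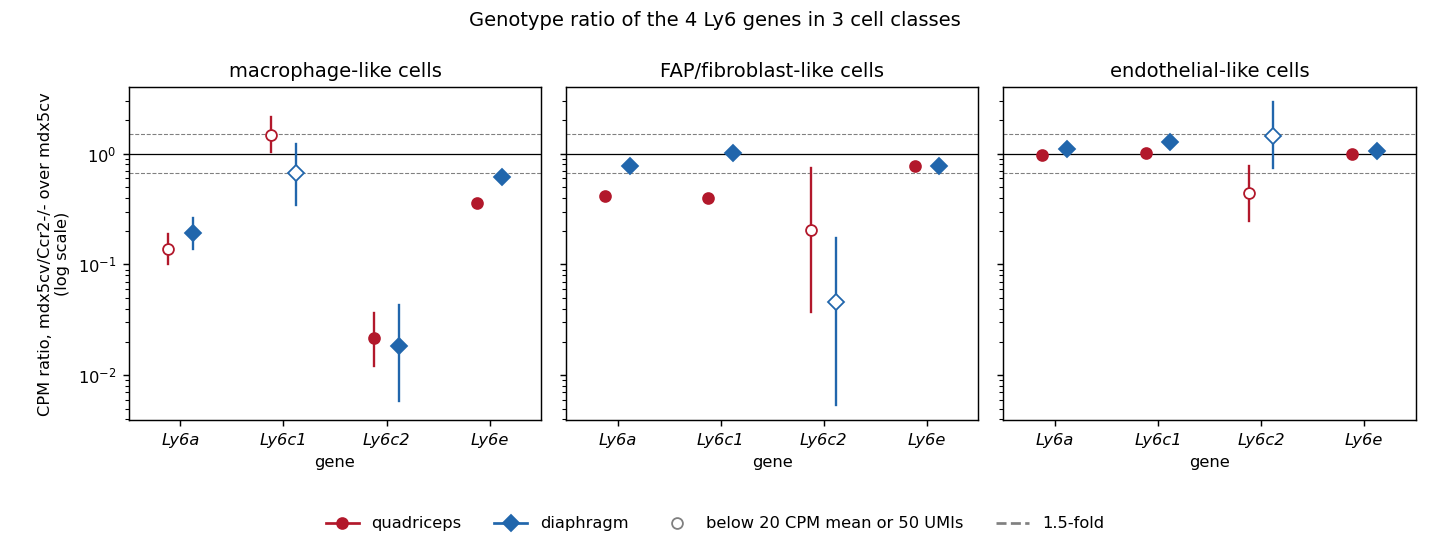
Ratio of CPM in mdx5cv/Ccr2-/- over mdx5cv libraries (log scale) of the 4 genes in 3 cell classes, with exact 95% intervals for counting error only. Open symbols are genes below 20 CPM in the mean or 50 UMIs. Ly6a, Ly6c2 and Ly6e lie below 1 in macrophage-like cells of both muscles, Ly6a and Ly6c1 lie below 1 in FAP/fibroblast-like cells of quadriceps, and the measured endothelial-like values stay within 0.965 to 1.27.

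Interferon-response genes, of which Ly6e and Ly6a are known to be inducible, were lower in the same cells. Of 17 measured type I interferon response genes, 14 were lower past the fold in quadriceps macrophage-like cells of mdx5cv/Ccr2-/- mice, with a median log2 ratio of -0.999, against 0.07 over all measured genes. In the diaphragm 11 of 18 were lower, with a median of -0.72 against 0.05. Among the abundant ones, Ifitm3, which encodes an antiviral membrane protein, had 404 CPM in mdx5cv/Ccr2-/- quadriceps against 812 CPM in mdx5cv quadriceps. Bst2, which encodes the virus-tethering protein tetherin, had 261 CPM in mdx5cv/Ccr2-/- quadriceps against 395 CPM in mdx5cv quadriceps. Ifi27l2a did not follow in the diaphragm, where its ratio was 1.13, and had a ratio of 0.832 in quadriceps. Of 10 measured interferon gamma response genes, 4 were lower in each muscle. Over all measured genes of these cells 1.95% were lower in quadriceps and 2.98% in diaphragm. A list gene could be measured through the mdx5cv library alone and then had to be lower, so these list counts may be too high. Between the 2 mdx5cv libraries 19 type I and 11 interferon gamma genes were measured in these cells. Between the 2 mdx5cv/Ccr2-/- libraries 15 and 8 were. Genes of GPI anchor synthesis, which all Ly6 proteins need, gave no call, with 0 of 11 in quadriceps and 0 of 10 in diaphragm.

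Cells were then divided by how many of 14 interferon-response genes they held at 2000 UMIs per cell, a set chosen after the values were seen. Ly6e climbed with that number in macrophage-like cells. In mdx5cv/Ccr2-/- quadriceps it was 261 CPM in cells with 0 of the genes, 408 CPM with 1 to 2 and 596 CPM with 3 or more, against 471, 872 and 1459 CPM in mdx5cv quadriceps. In mdx5cv/Ccr2-/- diaphragm it was 391 CPM with 0 and 513 CPM with 1 to 2, against 467 and 848 CPM in mdx5cv diaphragm. Within each bin the mdx5cv/Ccr2-/- value was the lower one. The highest bin of mdx5cv/Ccr2-/- quadriceps rested on 31 Ly6e UMIs in 26 cells. Its interval (405 to 846 CPM) overlapped that of the bin with 1 to 2 genes (349 to 474 CPM). Cells with 0 of the genes made up 70.2% of macrophage-like cells in mdx5cv/Ccr2-/- quadriceps against 50% in mdx5cv quadriceps, and 66.6% in mdx5cv/Ccr2-/- diaphragm against 47.2% in mdx5cv diaphragm. The part of interferon response or of monocyte-derived cells in the Ly6e difference was not tested.

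**Figure D3:**
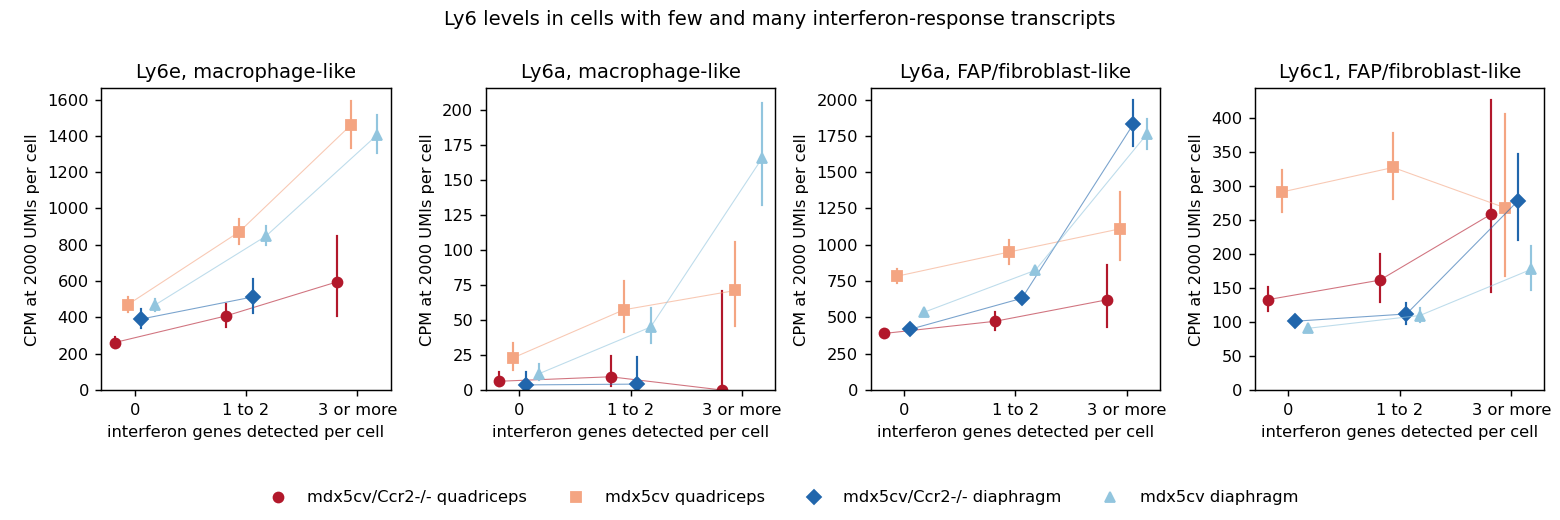
Ly6 levels (CPM at 2000 UMIs per cell) in cells with 0, 1 to 2, or 3 or more of 14 interferon-response genes detected, by library, with exact Poisson 95% intervals. In mdx5cv quadriceps macrophage-like cells Ly6e goes through 471, 872 and 1459 CPM, and in mdx5cv/Ccr2-/- quadriceps through 261, 408 and 596 CPM. Bins under 20 cells are not drawn.

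In FAP/fibroblast-like cells, Ly6a and Ly6c1 were lower in mdx5cv/Ccr2-/- mice in quadriceps, and Ly6a to a smaller extent in diaphragm. Ly6a had 366 CPM in mdx5cv/Ccr2-/- quadriceps (1176 cells) against 881 CPM in mdx5cv quadriceps (947 cells), which is a ratio of 0.416 (0.403 to 0.428). Diaphragm cells had 526 CPM in mdx5cv/Ccr2-/- mice (3860 cells) against 684 CPM in mdx5cv mice (6947 cells), a ratio of 0.769 (0.757 to 0.782). The mdx5cv quadriceps library was the highest of the 4 and the mdx5cv/Ccr2-/- quadriceps library the lowest.

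Ly6c1 in FAP/fibroblast-like cells had 110 CPM in mdx5cv/Ccr2-/- quadriceps against 279 CPM in mdx5cv quadriceps, which is a ratio of 0.394 (0.373 to 0.416). Diaphragm cells had 103 CPM in mdx5cv/Ccr2-/- mice against 102 CPM in mdx5cv mice, a ratio of 1.01 (0.971 to 1.05). The mdx5cv quadriceps library therefore stood apart and the other 3 lay together. Ly6e had 354 CPM in mdx5cv/Ccr2-/- quadriceps against 454 CPM in mdx5cv quadriceps and 348 CPM in mdx5cv/Ccr2-/- diaphragm against 448 CPM in mdx5cv diaphragm, ratios of 0.780 (0.754 to 0.807) and 0.778 (0.762 to 0.794). Of 3 measured members, 2 were lower past the fold in quadriceps, where 2.15% of 5906 measured genes were lower, and 0 in diaphragm, where 0.579% of 5699 were. Ly6a and Ly6c1 stood at percentiles 0.288 and 0.237 of the measured genes in quadriceps.

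At 2000 UMIs per cell, Ly6a was found in 39.9% of FAP/fibroblast-like cells in mdx5cv/Ccr2-/- quadriceps against 64.6% in mdx5cv quadriceps, and in 43.2% in mdx5cv/Ccr2-/- diaphragm against 51.6% in mdx5cv diaphragm. Without thinning the shares were 71.4% in mdx5cv/Ccr2-/- quadriceps against 89.8% in mdx5cv quadriceps, and 71.1% in mdx5cv/Ccr2-/- diaphragm against 73.1% in mdx5cv diaphragm. Ly6c1 was found in 17.8% of cells in mdx5cv/Ccr2-/- quadriceps against 33.7% in mdx5cv quadriceps, and in 14.7% in mdx5cv/Ccr2-/- diaphragm against 13.7% in mdx5cv diaphragm. Both genes were far above the background of muscle stem cell-like cells, where Ly6c1 was in 0.481% to 1.05%.

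The fibroblast subsets differed widely in Ly6a. Pi16 Dpp4 adventitial cells, known as a progenitor-like population around vessels, had 1569 CPM in mdx5cv/Ccr2-/- quadriceps against 1952 CPM in mdx5cv quadriceps, and 1471 CPM in mdx5cv/Ccr2-/- diaphragm against 1486 CPM in mdx5cv diaphragm. Inmt resting cells had 612 CPM in mdx5cv/Ccr2-/- quadriceps against 947 CPM in mdx5cv quadriceps, and 557 CPM in mdx5cv/Ccr2-/- diaphragm against 721 CPM in mdx5cv diaphragm. Cthrc1 Tnc activated cells, which express genes of matrix production, had 223 CPM in mdx5cv/Ccr2-/- quadriceps against 587 CPM in mdx5cv quadriceps, and 242 CPM in mdx5cv/Ccr2-/- diaphragm against 406 CPM in mdx5cv diaphragm. Adventitial cells were highest and activated cells lowest in each of the 4 libraries.

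The subset mix moved with genotype as well. Activated cells made up 51.0% of FAP/fibroblast-like cells in mdx5cv/Ccr2-/- quadriceps against 23.4% in mdx5cv quadriceps, and 13.5% in mdx5cv/Ccr2-/- diaphragm against 11.6% in mdx5cv diaphragm. Within subsets the Ly6a ratio in quadriceps was 0.804 (0.738 to 0.874) in adventitial, 0.646 (0.612 to 0.681) in Inmt resting and 0.380 (0.360 to 0.400) in activated cells. In the diaphragm it was 0.989 (0.942 to 1.04), 0.772 (0.756 to 0.789) and 0.596 (0.566 to 0.627) in adventitial, Inmt resting and activated cells. Within each subset of quadriceps the level was below that of mdx5cv, and the ratio of the whole class, 0.416, was near that of the activated subset.

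Ly6c1 had the same order of subsets. Adventitial cells had 875 CPM in mdx5cv/Ccr2-/- quadriceps against 1129 CPM in mdx5cv quadriceps and 553 CPM in mdx5cv/Ccr2-/- diaphragm against 507 CPM in mdx5cv diaphragm. Activated cells had 44.7 CPM in mdx5cv/Ccr2-/- quadriceps against 129 CPM in mdx5cv quadriceps and 34.5 CPM in mdx5cv/Ccr2-/- diaphragm against 44.7 CPM in mdx5cv diaphragm. In quadriceps its ratios were 0.775 (0.692 to 0.868) in adventitial, 0.662 (0.600 to 0.728) in Inmt resting and 0.347 (0.309 to 0.389) in activated cells, each set of values again below mdx5cv. Of the measured members, 2 of 3 were lower past the fold in activated cells of quadriceps (background 1.56%), 1 of 3 in Inmt resting cells (0.804%) and 0 of 3 in adventitial cells (3.76%).

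Ly6e lacked that order. It was highest in activated cells of quadriceps, at 384 CPM in mdx5cv/Ccr2-/- quadriceps against 517 CPM in mdx5cv quadriceps, and lowest in adventitial cells, at 226 CPM in mdx5cv/Ccr2-/- quadriceps against 334 CPM in mdx5cv quadriceps. Its ratios in quadriceps lay between 0.677 and 0.742 over the 3 subsets. In the diaphragm they were 0.922 in adventitial, 0.780 in Inmt resting and 0.766 in activated cells.

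**Figure D4:**
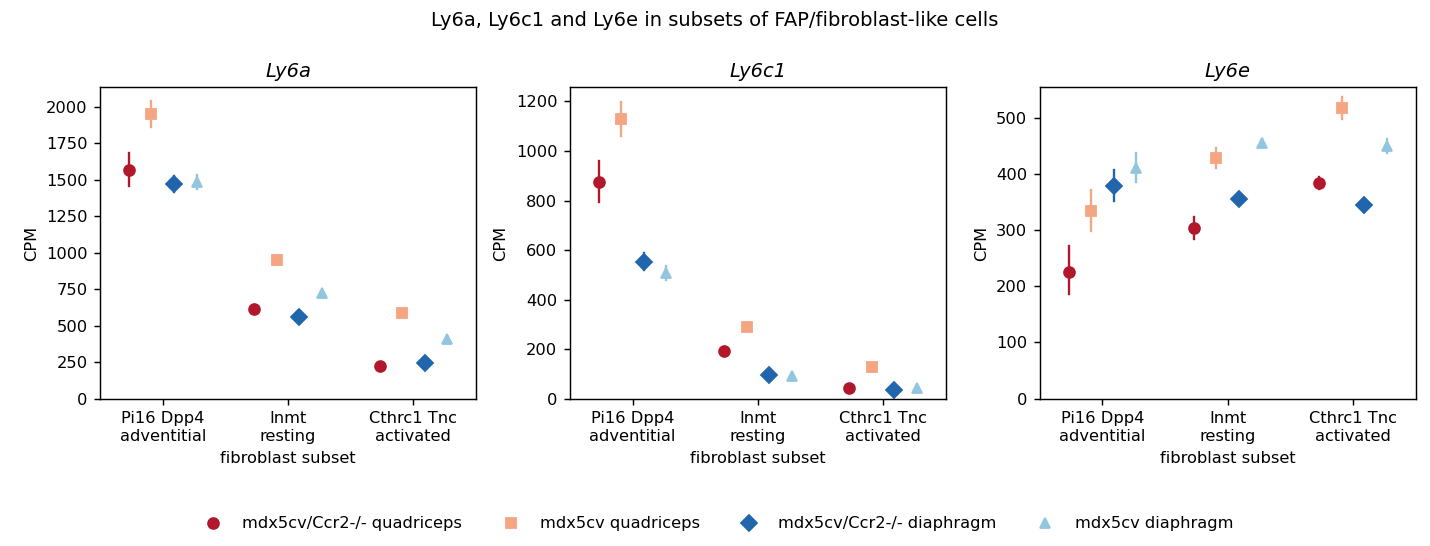
Level (CPM) of Ly6a, Ly6c1 and Ly6e in 3 subsets of FAP/fibroblast-like cells, 1 symbol per library with its exact Poisson 95% interval. Ly6a and Ly6c1 fall in the order Pi16 Dpp4 adventitial, Inmt resting, Cthrc1 Tnc activated in all 4 libraries, and the mdx5cv quadriceps library is the highest in each subset for both genes.

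Most interferon-response genes stayed within the fold in FAP/fibroblast-like cells, though their medians were below that of all measured genes. Of 12 measured type I genes, 1 was lower past the fold in quadriceps (median log2 ratio -0.33, against 0.04 over all measured genes). In diaphragm 1 of 15 was (-0.34 against 0.04). Of 11 measured interferon gamma response genes, 2 were lower in each muscle. Over all measured genes of these cells, 2.15% were lower in quadriceps and 0.579% in diaphragm. Ifi27l2a had 240 CPM in mdx5cv/Ccr2-/- quadriceps against 458 CPM in mdx5cv quadriceps, and Ifitm3 had 1245 CPM in mdx5cv/Ccr2-/- quadriceps against 1561 CPM in mdx5cv quadriceps. Ly6a also climbed with the interferon genes a fibroblast-like cell held. It had 389, 473 and 621 CPM in cells with 0, 1 to 2 and 3 or more of them in mdx5cv/Ccr2-/- quadriceps, against 784, 950 and 1110 CPM in mdx5cv quadriceps. In the diaphragm the values were 419, 632 and 1831 CPM in mdx5cv/Ccr2-/- mice, against 535, 824 and 1760 CPM in mdx5cv mice. In 5 of these 6 pairs of bins the mdx5cv/Ccr2-/- value was the lower one, and in the highest bin of the diaphragm it was not. The highest bin of quadriceps held 29 cells in mdx5cv/Ccr2-/- mice (interval 435 to 859 CPM) and 41 in mdx5cv mice (894 to 1363 CPM). Both intervals overlapped those of the bin below. The part of the subset mix or of interferon response in the Ly6a difference was not tested.

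Endothelial-like cells gave no call for any member. In quadriceps the ratios of mdx5cv/Ccr2-/- over mdx5cv were 0.965 (0.940 to 0.991) for Ly6a, 1.01 (0.988 to 1.03) for Ly6c1 and 0.985 (0.960 to 1.01) for Ly6e. In the diaphragm they were 1.10 (1.05 to 1.14), 1.27 (1.22 to 1.31) and 1.06 (1.01 to 1.10) for the same genes. Thus 0 of 3 measured members were past the fold in either muscle, where 0.769% of genes were lower in quadriceps and 3.23% in diaphragm. Lymphatic cells, low in Ly6a and Ly6c1, made up 11.8% of endothelial-like cells in mdx5cv/Ccr2-/- diaphragm against 25.3% in mdx5cv diaphragm. In capillary endothelial-like cells of the diaphragm, a subset considered alone after the values were seen, the direction turned for Ly6a and Ly6e. For Ly6c1 the interval held 1. There the ratios were 0.822 (0.782 to 0.864) for Ly6a, 0.972 (0.935 to 1.01) for Ly6c1 and 0.918 (0.875 to 0.963) for Ly6e.

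In smaller classes a few members were past the fold. Ly6a in tenocyte-like cells of quadriceps had 33.6 CPM in mdx5cv/Ccr2-/- mice against 84.004 CPM in mdx5cv mice, a ratio of 0.400 (0.296 to 0.538), where 1.89% of genes were lower. With cells thinned to 2000 UMIs that ratio was 0.617. Ly6a in B-like cells of the diaphragm had 345 CPM in mdx5cv/Ccr2-/- mice (71 cells) against 642 CPM in mdx5cv mice (203 cells), a ratio of 0.538 (0.436 to 0.659), where 6.64% were lower. Ly6e in neutrophil-like cells of quadriceps had 237 CPM in mdx5cv/Ccr2-/- mice against 543 CPM in mdx5cv mice, a ratio of 0.437 (0.294 to 0.637), but 20.9% of genes were lower there, over 64 and 69 cells. Without cells that hold markers of a second class the ratio was 0.666. T-like cells of the diaphragm gave no call, with ratios of 0.679 for Ly6a, 0.861 for Ly6c2 and 0.872 for Ly6e and a background of 2.57%. The Ly6c2 ratio there depended on how cells were weighted, since it was 0.479 with cells weighted equally and 0.413 with cells thinned to 2000 UMIs. T-like cells had 116 CPM of Ly6c2 in mdx5cv/Ccr2-/- diaphragm, against 135 CPM in mdx5cv diaphragm. The Ly6e ratio of muscle stem cell-like cells was 1.02 in quadriceps and 0.857 in diaphragm.

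Set by muscle, Ly6c1 in FAP/fibroblast-like cells was lower in the diaphragm than in the quadriceps of mdx5cv mice. The ratio of diaphragm over quadriceps was 0.365 (0.351 to 0.380) in mdx5cv mice, where 6.88% of measured genes were lower past the fold. It was 0.449 in adventitial, 0.318 in Inmt resting, 0.346 in activated and 0.518 in cytokine-expressing (Ccl7 Ptx3) cells, so every subset was lower in the diaphragm. In mdx5cv/Ccr2-/- mice the class ratio was 0.936 (0.887 to 0.987), with 0.632 in adventitial, 0.490 in Inmt resting and 0.773 in activated cells. Ly6a had a class ratio of 1.44 (1.40 to 1.48) in mdx5cv/Ccr2-/- mice and 0.776 (0.761 to 0.791) in mdx5cv mice. Its subset ratios in mdx5cv/Ccr2-/- mice were 0.937, 0.911 and 1.09 in adventitial, Inmt resting and activated cells. In these mice activated cells made up 51.0% of the class in quadriceps and 13.5% in diaphragm. Inmt resting cells made up 27.4% and 61.7%, and adventitial cells 4.34% and 4.51%, in the same order. The part of this mix in the Ly6a class ratio was not tested. For Ly6e of macrophage-like cells the ratio of diaphragm over quadriceps was 1.85 (1.74 to 1.96) in mdx5cv/Ccr2-/- mice, where 6.58% of genes were higher. It was 1.07 (1.04 to 1.10) in mdx5cv mice. Folr2 Cd163 resident-like cells, the subset high in Ly6e, were 108 of 433 macrophage-like cells in mdx5cv/Ccr2-/- diaphragm and 86 of 826 in mdx5cv/Ccr2-/- quadriceps, and their own Ly6e ratio was 0.936 (0.832 to 1.05). MHC class II-rich cells, the largest of the macrophage subsets, had a Ly6e ratio of 1.75 (1.59 to 1.92) in the same comparison.

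The members' own patterns over 38 points of class by library with at least 50 cells were compared with those of 6379 genes, as a description over points that share libraries. Ly6a and Ly6c1 had a Pearson correlation of 0.765 on the log2(CPM + 5) scale, while Ly6a and Ly6c2 had -0.03 and Ly6c1 and Ly6c2 -0.20. Ly6a was most like Ablim1 (0.823), Hdac7 (0.796), Ace (0.757), Heg1 (0.746) and H2-T22 (0.736). Ly6c1 was most like Adh1 (0.915), Fgd5 (0.904), Tek (0.903), Mecom (0.896) and Hdac7 (0.878), of which Tek encodes the angiopoietin receptor of endothelium. Ly6c2 was most like Slfn1 (0.920), Lcp2 (0.813), Ltb4r1 (0.813), Itgal (0.806) and Chil3 (0.798), the last of which was a marker of the monocyte gate. The genes most like Ly6e included H2-T23 (0.803), Sp100 (0.798), Tap1 (0.796) and Shisa5 (0.776), of which Tap1 carries peptides to MHC class I.

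Of 45 further genes of the Ly6/uPAR family, 42 were in the matrices, 31 had at least 1 UMI and 10 reached 50 UMIs in a class of a library. Ly6d, known as a marker of B-lineage commitment, had 1258 CPM in B-like cells of mdx5cv/Ccr2-/- quadriceps against 865 CPM in mdx5cv quadriceps, and 1583 CPM in mdx5cv/Ccr2-/- diaphragm against 1846 CPM in mdx5cv diaphragm. Gpihbp1, which carries lipoprotein lipase across capillary endothelium, had 1373 CPM in endothelial-like cells of mdx5cv/Ccr2-/- quadriceps against 1136 CPM in mdx5cv quadriceps, and 1310 CPM in mdx5cv/Ccr2-/- diaphragm against 1035 CPM in mdx5cv diaphragm. Plaur, the urokinase receptor, was highest in neutrophil-like cells of quadriceps, at 528 CPM in mdx5cv/Ccr2-/- mice against 395 CPM in mdx5cv mice. Cd59a, an inhibitor of complement, was highest in Schwann-like cells of quadriceps, at 489 CPM in mdx5cv/Ccr2-/- mice against 289 CPM in mdx5cv mice. Ly6g5b reached 43.9 to 78.7 CPM in T-like cells. Ly6h in FAP/fibroblast-like cells had 34.5 CPM in mdx5cv/Ccr2-/- quadriceps against 12.7 CPM in mdx5cv quadriceps, a ratio of 2.71 (2.31 to 3.20). It was measured through the mdx5cv/Ccr2-/- library alone and therefore had to be higher, so nothing is read from its direction. Of 5906 measured genes in these cells, 2.07% were higher past the fold. In the diaphragm Ly6h was at 3.44 CPM in mdx5cv/Ccr2-/- mice against 4.15 CPM in mdx5cv mice.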

How the data were processed

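Raw UMI counts per gene and barcode were deposited by the authors for 4 libraries, using the mm10 build per the submitters' processing notes and, per the file headers, Cell Ranger 6.1.2. The sources used here give neither annotation release, intron handling nor cell calling. Cells were barcodes of 500 or more UMIs, 300 or more genes and 15% or less mitochondrial UMIs. A cell joined the class with most of 6 markers detected, given at least 3 and a lead of 2 (subsets, at least 2 and a lead of 1), so cells with markers of several classes stayed unclassed. Doublets were called only in an alternative. UMIs were summed per class and library and given as CPM of that sum, for classes of at least 20 cells, with ratios for at least 50 in both libraries and a pseudocount of 5 CPM on the log2 scale. Intervals are exact at 95% (Poisson, Clopper-Pearson, conditional binomial), computed with scipy 1.17.1 in Python 3.11.15, checked on simulated counts. They take UMIs as independent and cover no variation between cells, animals or libraries. A count of 0 was taken to allow 3. Shares of cells used cells thinned to 2000 UMIs. Named genes were the members, Ccr2, the 6 family genes highest in CPM, the 5 genes most like each member (1 is not reported here) and the 3 interferon genes highest in CPM. Members, markers and lists were chosen with earlier results of these data known.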

Additional observations from a re-analysis of the deposited data

Results flagged for a closer look

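In 5 cases the direction of a member turned between muscles or between genotypes. Each was singled out because the counting intervals lie on opposite sides of 1, and none of these differences was tested, since each group is 1 library. The Ly6a ratio of mdx5cv/Ccr2-/- over mdx5cv in endothelial-like cells was 1.10 in diaphragm and 0.965 in quadriceps. In capillary endothelial-like cells alone it was 0.822 in diaphragm and 0.888 in quadriceps, on the same side of 1, and lymphatic cells made up 11.8% of endothelial-like cells in mdx5cv/Ccr2-/- diaphragm against 25.3% in mdx5cv diaphragm. The Ly6c1 ratio of mdx5cv/Ccr2-/- over mdx5cv in Pi16 Dpp4 adventitial fibroblast-like cells was 1.09 in diaphragm and 0.775 in quadriceps. The Ly6a ratio of diaphragm over quadriceps in FAP/fibroblast-like cells was 1.44 in mdx5cv/Ccr2-/- mice and 0.776 in mdx5cv mice. In the Cthrc1 Tnc activated subset alone the Ly6a ratio of diaphragm over quadriceps was 1.09 in mdx5cv/Ccr2-/- mice and 0.692 in mdx5cv mice. The Ly6e ratio of diaphragm over quadriceps in MHC class II-rich macrophage-like cells was 1.75 in mdx5cv/Ccr2-/- mice and 0.913 in mdx5cv mice.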

How the results depend on the processing

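No paired analysis was possible because each group is 1 library. Of 289 alternative values of genotype ratios, 212 moved by less than the counting interval, 77 moved by more and 0 of the called ratios changed direction. In FAP/fibroblast-like cells of quadriceps the Ly6a ratio was 0.394 with a looser gate, 0.489 with cells weighted equally, 0.491 with cells thinned to 2000 UMIs and 0.529 without cells that hold markers of a second class, and the Ly6c1 ratio was 0.463, 0.452 and 0.504 under the last 3 of these. By subset (adventitial, activated, Inmt resting) the Ly6a ratio was 0.804, 0.380 and 0.646 and the Ly6c1 ratio 0.775, 0.347 and 0.662. In the diaphragm the Ly6a ratio was 0.754 without mitochondrial, ribosomal and haemoglobin genes in the total, 0.748 with median-of-ratios scaling, 0.788 without second-class cells, 0.989 in adventitial and 0.596 in activated cells. In macrophage-like cells of quadriceps the Ly6c2 ratio was 0.0387 with equal weights, 0.0655 thinned and 0.0512 without cells holding monocyte markers, and the Ly6e ratio was 0.399 with equal weights, 0.401 without second-class cells, 0.441 without cells holding monocyte markers and 0.337 with median-of-ratios scaling. In the diaphragm the Ly6a ratio was 0.118 with a stricter gate, the Ly6c2 ratio 0 thinned and 0.00989 without second-class cells, and the Ly6e ratio 0.584 thinned and 0.678 without cells holding monocyte markers. Members lower past the fold in macrophage-like cells numbered 1 in quadriceps and 0 in diaphragm without cells holding monocyte markers. The subset, second-class and monocyte-marker alternatives were chosen after seeing the data. Scrublet removal (2342 cells, 7.54%) left every called ratio within its interval. The cause of these shifts was not tested.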
